A study of Mus musculus with 12 samples.

Results

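The genes described here are Vegfa and 6 genes used to mark vascular endothelium, namely Cldn5, Pecam1, Cdh5, Flt1, Kdr and Tek. They were named by symbol, with no threshold on their values, and are 7 of the 56748 genes in the deposited table. RNA was measured in 12 mouse libraries, 3 in each of 4 groups, as whole-retina RNA (retina) and as rod TRAP RNA, the mRNA captured on ribosomes of rods. Control mice (Het) were RiboTag;Shp2fl/+;i75-Rod-Cre and knockout mice (KO) were RiboTag;Shp2fl/fl;i75-Rod-Cre, all littermates aged 2 weeks. Every mouse therefore carried the RiboTag allele, which adds an HA tag to the ribosomal protein Rpl22 after Cre acts, and a Cre driven by the rhodopsin promoter. The controls also carried 1 floxed Shp2 allele, and their titles call them wt. Cre was directed to rods in both genotypes, so Shp2 was not targeted in endothelial cells. Tissue came from mice perfused with cycloheximide, which holds ribosomes on mRNA. The records do not say whether the 3 libraries of a group came from separate animals, so the p-values below measure the spread between these libraries.

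Retinal vessels grow under the control of VEGF-A, a secreted ligand encoded by Vegfa, which neurons and glia release when oxygen is short. Endothelial cells sense it through the receptor tyrosine kinases VEGFR2, encoded by Kdr, and VEGFR1, encoded by Flt1, of which VEGFR2 is the main signalling receptor and VEGFR1 binds the ligand tightly with weak kinase activity. Tek encodes Tie2, the receptor for angiopoietins, while Cdh5 (VE-cadherin), Cldn5 (claudin-5, the main tight junction protein of the inner blood-retina barrier) and Pecam1 (CD31) sit at the contacts between endothelial cells. Shp2, encoded by Ptpn11, is a tyrosine phosphatase that acts downstream of many receptor tyrosine kinases.

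The 250 bases before the start of transcription are shown for the ligand and both VEGF receptors, the 3 members with the most RNA per kilobase in whole retina. ETS factors, a family that includes the endothelial factor Erg, bind sites with the core letters GGAA, so GGAA and its reverse TTCC are in capitals. Sequences are RefSeq promoter windows of GRCm38.p6, written 5′ to 3′ along the gene, from the minus strand at chr17:46032378-46032627 for Vegfa, chr5:75978456-75978705 for Kdr and chr5:147726012-147726261 for Flt1. In the GENCODE annotation of that build the genes themselves span chr17:46016993-46032369 (Vegfa), chr5:75932827-75978458 (Kdr), chr5:147561604-147726011 (Flt1), chr4:94739289-94874976 (Tek), chr8:104101625-104144511 (Cdh5), chr16:18776847-18778262 (Cldn5) and chr11:106654217-106750628 (Pecam1).
Vegfa: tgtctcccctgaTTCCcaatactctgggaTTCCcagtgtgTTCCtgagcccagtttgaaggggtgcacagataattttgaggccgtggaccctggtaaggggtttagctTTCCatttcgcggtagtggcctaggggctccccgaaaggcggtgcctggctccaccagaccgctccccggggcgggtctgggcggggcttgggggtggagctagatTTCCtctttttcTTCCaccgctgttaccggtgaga
Kdr: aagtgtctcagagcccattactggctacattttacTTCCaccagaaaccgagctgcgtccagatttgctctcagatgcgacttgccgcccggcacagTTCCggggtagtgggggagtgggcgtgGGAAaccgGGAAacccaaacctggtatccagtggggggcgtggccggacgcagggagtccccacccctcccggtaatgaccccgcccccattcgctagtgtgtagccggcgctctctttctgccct
Flt1: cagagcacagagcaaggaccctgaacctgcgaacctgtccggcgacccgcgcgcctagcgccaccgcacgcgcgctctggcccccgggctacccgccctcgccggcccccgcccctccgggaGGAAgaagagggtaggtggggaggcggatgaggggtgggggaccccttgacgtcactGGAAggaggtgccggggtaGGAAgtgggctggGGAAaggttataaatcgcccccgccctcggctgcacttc
The core letters occurred 6 times in the Vegfa window shown and 4 times each for Kdr and Flt1 over both strands, against 2 times for Tek and 0 for Cldn5. Of the 32841 promoter windows of the same length, 93.5% held the core at least once and 33.4% held it 4 or more times, so its presence does not set these genes apart. The hypoxia response core ACGTG, searched on both strands, had no match in the Vegfa, Kdr and Flt1 windows shown, and 16.6% of all windows hold it. A second RefSeq window of Vegfa, at chr17:46025164-46025413 inside the gene, held the GGAA core 2 times and ACGTG 1 time. Sequence outside these windows of 250 bases was not searched, so sites farther from the start would be missed. Entries for Pecam1 and Cdh5 were not in the promoter table.

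The deposited values are read counts multiplied by 1 factor per library and rounded, a step inferred from the values. They correspond to an estimated 9980000 to 19230000 reads per retina library and 11893000 to 25276000 per rod TRAP library. A value of 3 reads is then 1.93 to 4.37, which covers counting error only. The rod capture was checked with 10 rod genes, of which 10 of 10 were higher in rod TRAP than in retina in each genotype. Of all genes tested, 3453 of 16110 in Het and 4146 of 16121 in KO mice were called higher. Ptpn11, the targeted gene, had values of 2511, 2439 and 2431 in Het rods against 1735, 2139 and 1971 in KO rods. The groups did not overlap, as was the case for 44.8% of the genes tested. The log2 fold change was -0.28 (SE 0.09, adjusted p = 0.0405 from limma), which is short of the limit of 0.5 set for a call. The table gives 1 value per gene, so reads over the floxed exon cannot be separated.

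Vegfa and the VEGF receptors were far more abundant in whole retina than the junction genes and Tek. Levels are given here as TMM-scaled values per kilobase of the longest transcript, mean ± SD over 3 libraries. In Het retina Vegfa reached 329 ± 89.1, Kdr 269 ± 26.5 and Flt1 139 ± 7.61. The ranges of Vegfa and Kdr overlapped, while Flt1 lay below both. Pecam1 followed at 19.5 ± 4.17 and Cldn5 at 17.4 ± 6.25, and these overlapped each other. Tek had 6.94 ± 2.48 and Cdh5 4.62 ± 1.99, again with overlapping ranges. KO retina gave the same order, with Vegfa at 334 ± 49.2, Kdr at 278 ± 27.3, Flt1 at 137 ± 12.4, Pecam1 at 19.4 ± 2.45, Cldn5 at 13.7 ± 9.12, Tek at 7.67 ± 4.53 and Cdh5 at 4.51 ± 2.68. When the length was the union of all exons instead of the longest transcript, Pecam1 fell to 10.8 in Het retina, below Cldn5, and Flt1 to 71.1.

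The label of endothelium rests on all 6 genes, but Kdr and Flt1 had far higher levels than the other 4. Of 22 further endothelial identity genes, the median level per kilobase in Het retina was 6.79. Podxl, podocalyxin, stood at 677 per kilobase and was also high in rod TRAP. The next highest was Esam, an endothelial adhesion molecule, at 57.5 per kilobase. Kdr and Flt1 were thus above 21 of the 22 genes, whereas Cldn5, Pecam1, Cdh5 and Tek lay among them. The cell types that carry the Kdr and Flt1 RNA were not tested.

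**Figure D1:**
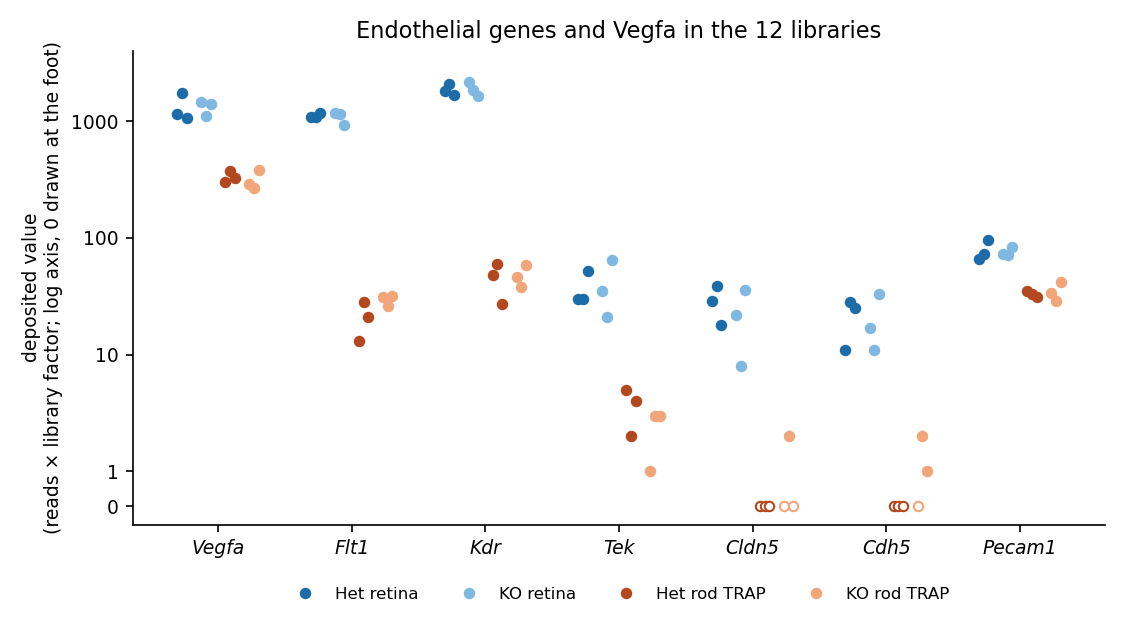
Deposited values (reads multiplied by a library factor, log axis, 0 drawn at the foot as open points) of the 7 genes, 1 point per library and 3 libraries per group. Vegfa, Flt1 and Kdr lie between 930 and 2146 in retina, Cldn5 and Cdh5 are at 0 in every Het rod TRAP library, and Het and KO points overlap for each gene within a fraction.

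All 7 genes were lower in rod TRAP than in whole retina in Het mice. Of the 16110 genes tested, 36.8% were called lower in this comparison. A call required an adjusted p under 0.05 together with a log2 change beyond 0.5. The split of all calls was 3453 higher and 5923 lower, and 1168 higher and 7399 lower when only library size was used for scaling. Fold changes here are on the log2(TMM-scaled value + 2) scale, which understates the change of genes with low values. In bulk RNA, fewer cells of a type and less RNA per cell cannot be told apart.

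Vegfa, the ligand, had the highest level in rod TRAP among the 7. Its deposited values were 1159, 1733 and 1061 in Het retina and 299, 373 and 325 in Het rods. Every rod library was below every retina library, as was the case for 68.6% of all genes tested. The log2 fold change was -1.71 (SE 0.20, adjusted p = 0.000109 from limma), a level 3.26-fold lower. In KO mice the values were 1450, 1100 and 1393 in retina and 291, 269 and 383 in rods. The log2 fold change was -1.69 (SE 0.17, adjusted p = 4.09e-05 from limma), with no overlap either, which held for 72.1% of genes tested in KO mice. Per kilobase, Vegfa stood at 111 ± 12.1 in Het rods, at 105 ± 20.7 in KO rods, and remained above the next member, Pecam1, which had 11.1 ± 0.67 and 11.7 ± 2.27.

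The VEGF receptors were nearly lost from the rod fraction. Flt1 had values of 1087, 1090 and 1163 in Het retina and 13, 28 and 21 in Het rods. Its log2 fold change of -5.44 (SE 0.26, adjusted p = 8.57e-07 from limma) was lower than that of all but 0.788% of the genes tested. Kdr had 1804, 2059 and 1677 in Het retina against 48, 60 and 27 in Het rods, a log2 fold change of -5.12 (SE 0.27, adjusted p = 1.28e-06 from limma). These are falls of 43.4-fold for Flt1 and 34.8-fold for Kdr. In KO mice Flt1 had 1177, 1138 and 930 in retina and 31, 26 and 32 in rods, and its log2 fold change was -4.73 (SE 0.17, adjusted p = 4.30e-07 from limma). Kdr in KO mice had 2146, 1848 and 1653 in retina and 46, 38 and 58 in rods, with a log2 fold change of -4.90 (SE 0.18, adjusted p = 4.36e-07 from limma). The rod values of both receptors are above the 3-read floor in every library.

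Tek, the angiopoietin receptor, was close to the floor in rods. It had values of 30, 30 and 52 in Het retina and 5, 2 and 4 in Het rods, the last corresponding to about 4, 3 and 3 reads. The log2 fold change was -2.59 (SE 0.36, adjusted p = 0.000269 from limma). From the reads alone the level was 9.02-fold lower (95% exact binomial interval 4.73 to 19.3, counting error only). In KO mice Tek had 35, 21 and 65 in retina and 1, 3 and 3 in rods, with a log2 fold change of -2.92 (SE 0.46, adjusted p = 0.000490 from limma). Tek passed the filter only through the retina libraries in both genotypes, so these p-values add no support.

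The adherens and tight junction genes had almost no reads in rod TRAP. Cldn5 had values of 29, 39 and 18 in Het retina and 0 in all 3 Het rod libraries, which makes it at least 23.0-fold lower when the floor is 3 reads over the group. Cdh5 had 11, 28 and 25 in Het retina and 0 in all 3 Het rod libraries, at least 16.5-fold lower on the same floor. Both were called lower, with adjusted p = 2.10e-05 for Cldn5 and adjusted p = 8.46e-05 for Cdh5 from limma. Only the retina libraries carried both genes past the filter, so these p-values add no support. In KO mice Cdh5 had 17, 11 and 33 in retina and 0, 2 and 1 in rods, about 3 reads in all. That is 15.6-fold lower (95% exact binomial interval 5.09 to 77.3), and the gene was called lower (adjusted p = 0.00107 from limma). Cldn5 in KO mice had 22, 8 and 36 in retina and 0, 2 and 0 in rods, about 2 reads, and was too low to be tested. Its ratio from reads was 24.7-fold lower (95% exact binomial interval 6.60 to 208).

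Pecam1 was the exception among the endothelial genes, with a clear remainder in rods. Its values were 66, 72 and 95 in Het retina and 35, 33 and 31 in Het rods. The groups did not overlap, and the log2 fold change was -0.93 (SE 0.25, adjusted p = 0.00954 from limma). In KO mice the values were 73, 71 and 84 in retina and 34, 29 and 42 in rods, with a log2 fold change of -0.73 (SE 0.25, adjusted p = 0.0263 from limma). These calls rest on few libraries. In Het mice the adjusted p was 0.0503 from limma without Het retina replicate 3, and in KO mice it was 0.0562, 0.0705 and 0.0994 without KO retina replicate 1, KO rods replicate 1 and KO rods replicate 2. With Pecam1, 6 of the 6 members tested in KO mice were lower, where 36.5% of 16121 genes were called lower. Of these members, Cdh5 and Tek passed the filter only through the retina libraries, which fixed their direction.

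**Figure D2:**
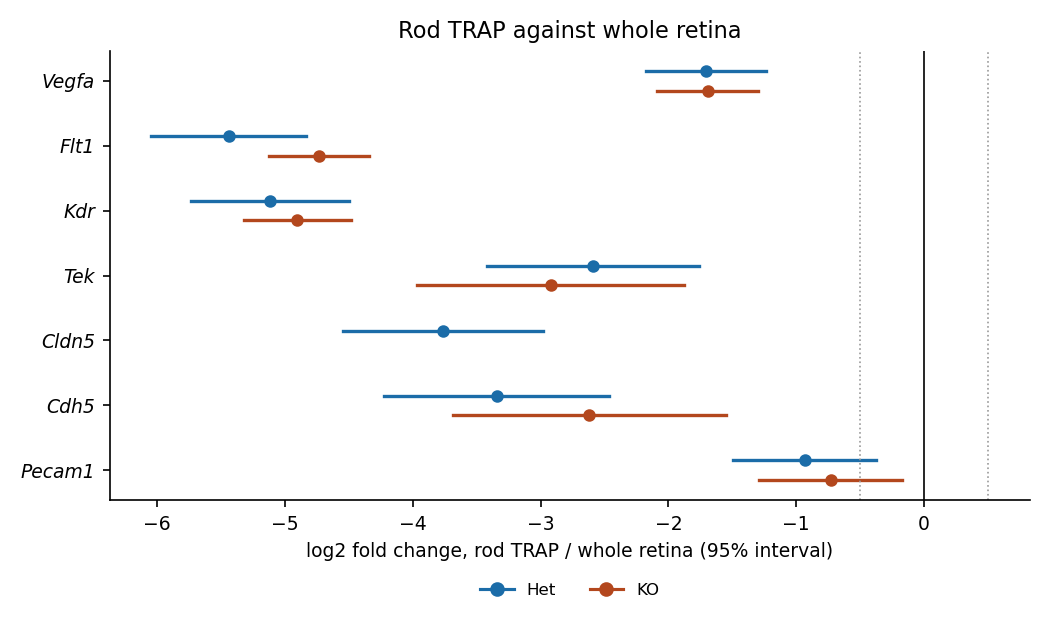
Log2 fold change of rod TRAP against whole retina with its 95% interval from limma, in Het and KO mice, with dotted lines at the limit of 0.5 in either direction. Flt1 and Kdr lie near -5, Vegfa near -1.7 and Pecam1 closest to 0. Cldn5 has no KO value because it was too low to be tested, and the Het points of Cldn5 and Cdh5 depend on the pseudocount because their rod values are 0.

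Ratios between members within a library need no scaling between libraries, so they were compared for all 10 pairs of the 5 members that had reads in every library. The exact permutation test exchanged fractions within a genotype, was two-sided over 400 arrangements, and cannot give a p below 0.005. With the Het libraries exchanged only within pairs of the same number, the smallest p is 0.0125. In that form 9 of the 10 ratios still passed (BH-adjusted 0.0179 to 0.0278, exact test). The share of other gene pairs that would pass was not computed, so this count does not set the members apart from other genes. Vegfa over Kdr was 0.595 to 0.843 in the 6 retina libraries and 6.22 to 12.04 in the 6 rod libraries, a 10.3-fold difference (exact p = 0.005, BH-adjusted 0.00833). Pecam1 over Kdr was 0.0340 to 0.0566 in retina and 0.550 to 1.15 in rods, an 18.4-fold difference with the same p from the exact test. Vegfa over Pecam1 went the other way, with 11.2 to 24.1 in retina and 8.54 to 11.3 in rods (exact p = 0.01, BH-adjusted 0.0143). Flt1 over Kdr was the only ratio of the 10 that missed the threshold, at 0.529 to 0.694 in retina and 0.271 to 0.778 in rods (exact p = 0.695). Apart from that ratio the 5 members compared were thus depleted to different degrees, with Pecam1 and Vegfa the least and Flt1 and Kdr the most. Cldn5 and Cdh5, at 0 in every Het rod library, were not in these ratios. Their falls in Het mice have only lower bounds, 23.0-fold and 16.5-fold, so they cannot be ranked beside Flt1 and Kdr.

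**Figure D3:**
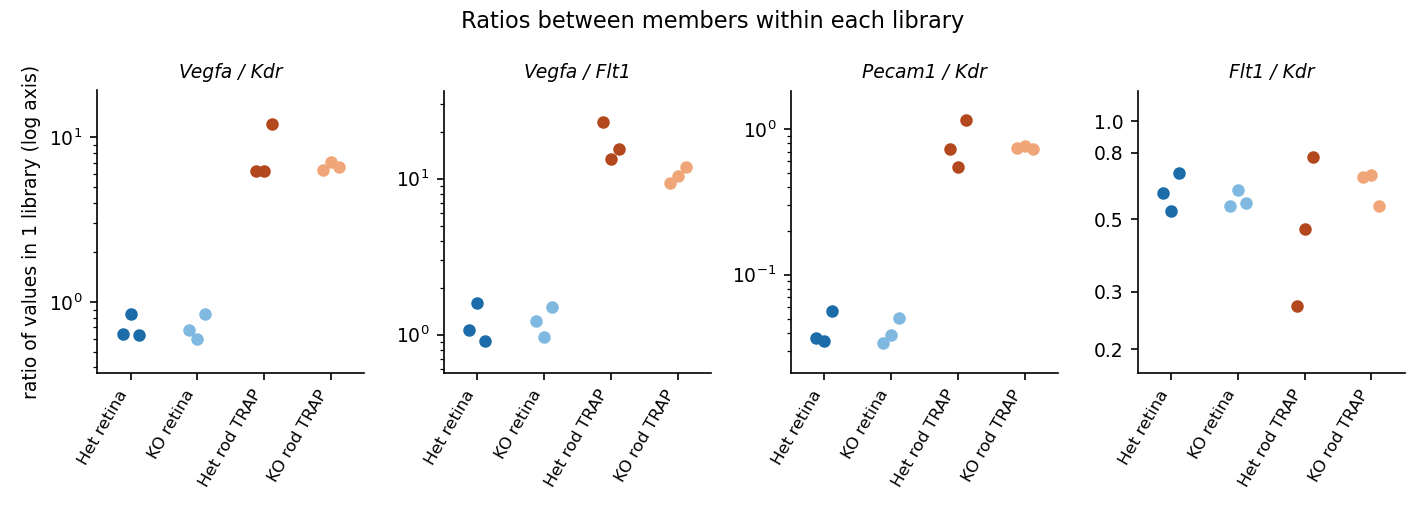
Ratios of deposited values within each library (log axes), 3 libraries per group. Vegfa over Kdr, Vegfa over Flt1 and Pecam1 over Kdr separate the fractions without overlap, while for Flt1 over Kdr the ranges overlap and that of rods is the wider.

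Other vascular genes were taken as lists, each described by its counts beside the median over all genes tested, which was -0.11 in the Het comparison of rod TRAP with retina. Of the 22 further endothelial identity genes 13 could be tested, 11 were lower and 1 was higher, with a median log2 fold change of -3.26. Most of those called lower passed the filter only through the retina libraries, which fixed their direction. This also holds for genes near 0 in rods in the lists below. Esam fell by 4.08 on the log2 scale and Ptprb, an endothelial receptor phosphatase that acts on Tie2, fell by 5.11 (adjusted p = 6.56e-06 and 6.69e-06 from limma). Podxl rose by 1.24 (SE 0.13, adjusted p = 4.07e-05 from limma), with values of 4635, 4529 and 3522 in Het retina and 8537, 8546 and 7930 in Het rods. Ets1, a transcription factor, was not called, at -0.79 (SE 0.84).

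Of 9 other ligands tested, from a list of VEGF, angiopoietin, guidance and other vessel ligands, 9 were lower. Their median was -3.66, or -3.82 with the 2 genes at 0 in rods set at their bound. Vegfb, a further VEGFR1 ligand, fell least among them, at -1.42 (SE 0.23, adjusted p = 0.000648 from limma), and at -0.50 with the trend in GC content subtracted, just short of the limit for a call. Its values were 374, 547 and 387 in Het retina and 110, 167 and 130 in Het rods. Sema3e, a guidance ligand for plexin-D1, fell by 4.38 and Sema3a fell by 3.89. All 8 tested receptors were lower, with a median of -3.66, from a list of VEGF, angiopoietin and guidance receptors that also holds Pdgfrb. The co-receptors Nrp2 and Nrp1 had -4.70 and -4.47, and Pdgfrb, the PDGF receptor of pericytes, fell by 5.04.

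Among 16 genes of barrier junctions and transport 8 were lower and 3 higher, with a median of -1.61. Cav1, of endothelial caveolae, fell by 5.12, and Abcg2, an efflux pump, fell by 5.24. The junction genes Jam2 and Marveld2 were higher, by 0.71 and 0.68, and Ocln (occludin) had a log2 fold change of 0.61 that was not called (adjusted p = 0.0640 from limma). Of 13 tested Norrin, Wnt and Notch genes of retinal vessels 9 were lower and 2 higher, with a median of -1.77. Ndp, which encodes Norrin, fell by 4.41 and its co-receptor Tspan12 fell by 4.44, while the receptor Fzd4 had -0.14 (adjusted p = 0.483 from limma) and Jag1 and Ctnnb1 (beta-catenin) rose by 0.59 and 0.57. The calls of Jam2, Marveld2, Jag1 and Ctnnb1 were lost when only library size was used for scaling, with log2 fold changes of 0.30, 0.28, 0.18 and 0.16. Of 16 alternatives in all, Marveld2 lost its call in 8, Jag1 and Ctnnb1 in 3 each and Jam2 in 1, whereas Ocln was called in 4.

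Oxygen-sensing genes and HIF targets, the group to which Vegfa itself belongs, were mixed. Of 21 tested 9 were higher and 4 lower in Het rods, with a median of 0.37. Of all 16110 genes tested, 3453 were higher and 5923 lower. Ldha (lactate dehydrogenase A) rose by 1.39, Hif1a, the oxygen-regulated HIF subunit, by 1.29, and Pgk1, a glycolytic kinase, by 1.13. Egln3 fell by 5.19, Hif3a fell by 3.91 and Pdk1 fell by 1.11. With library size alone the list had 4 higher and 6 lower and a median of -0.04, against -0.51 for all genes. TMM moved the log2 differences between fractions upward by 0.41 in Het and 0.53 in KO mice relative to scaling by library size. Each member kept its direction under every scaling tried.

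Most genes of the other cell types that touch vessels or could be left in a dissected retina were also called lower in rod TRAP. The RPE list in KO mice was the exception. In Het mice 7 of 7 mural cell genes, 5 of 5 blood cell genes and 9 of 10 Müller glia genes tested were called lower. So were 5 of 5 astrocyte genes, 7 of 7 microglia genes and 6 of 6 RPE genes. The medians of all these lists ran from -5.48 for astrocytes to -3.47 for RPE. The astrocyte median is the value of Aqp4, which is also in the Müller glia list. Pdgfrb is in both the mural cell and the receptor list. Among inner retinal neuron genes 11 of 12 were lower. In KO mice 6 of 7 mural cell genes, 5 of 5 blood cell genes, 9 of 10 Müller glia genes, 5 of 5 astrocyte genes, 8 of 8 microglia genes and 11 of 12 inner retinal neuron genes were called lower. Of the RPE genes in KO mice 2 of 7 were called, Tyrp1 and Best1, with a median of -3.07 over the 7. All 7 had negative log2 fold changes, from -5.01 to -2.10. Many genes of these cell type lists were near 0 in every rod library and passed the filter only through the retina libraries. Examples are C1qa, with 0, 0 and 1 in Het rods, and Best1, with 1 in each KO rod library. For such genes a lower direction was fixed by the filter, so the counts above are description only.

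Loss of Shp2 in rods went with no called change of the 7 genes in whole retina. The percentage of genes called in this comparison was 0, with 0 of 16863 passing limma and 140, or 0.83%, having an unadjusted p below 0.05. The groups did not overlap for 3.52% of these genes, and for none of the 7. Vegfa had 1159, 1733 and 1061 in Het and 1450, 1100 and 1393 in KO retina. The log2 fold change was 0.025 (95% interval -0.48 to 0.53, adjusted p = 0.9999 from limma), and the KO values lie inside the Het range.

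The receptors were measured more tightly. Kdr had 1804, 2059 and 1677 in Het and 2146, 1848 and 1653 in KO retina, with a log2 fold change of 0.029 (95% interval -0.31 to 0.37). Flt1 had 1087, 1090 and 1163 in Het and 1177, 1138 and 930 in KO retina, with -0.044 (95% interval -0.36 to 0.27). Tek had 0.020 with an interval of -1.03 to 1.07, which includes a 2-fold change in either direction.

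Of the junction genes Pecam1 was the best measured, at a log2 fold change of -0.013 (95% interval -0.58 to 0.55). Cdh5 had -0.090 (95% interval -1.24 to 1.06). Cldn5 had the largest difference of the 7, -0.49 (95% interval -1.72 to 0.75), and its 29, 39 and 18 in Het retina overlapped the 22, 8 and 36 in KO retina. The direction of Cldn5 turned without KO retina replicate 2, to 0.055. Each of the other 6 also changed sign when some single library was left out, so no direction can be read from them.

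The wider vascular lists held no call in whole retina. None of the 17 tested endothelial identity genes was called (median 0.14, all genes -0.0013), nor any of 16 barrier genes, 10 ligands, 8 receptors, 13 Norrin, Wnt and Notch genes and 23 HIF genes. Only Pdk1, at -0.41 (SE 0.17), had an unadjusted p below 0.05 in these lists, and its adjusted p was 0.9999 from limma.

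In rod TRAP 4 of the 7 genes had enough reads for the genotype comparison, and none was called, where 13.1% of 13055 genes were, 10.8% higher and 2.34% lower. Vegfa had 299, 373 and 325 in Het rods against 291, 269 and 383 in KO rods. Its log2 fold change was -0.025 (95% interval -0.34 to 0.29, adjusted p = 0.912 from limma), and the Het values fell within the KO range. Flt1 had 13, 28 and 21 in Het rods against 31, 26 and 32 in KO rods, and 2 of the 3 KO libraries exceeded every Het library. Its log2 fold change of 0.59 did not pass the test (95% interval -0.068 to 1.26, unadjusted p = 0.0744, adjusted p = 0.168 from limma). Kdr had 0.18 (95% interval -0.44 to 0.81) and Pecam1 0.13 (95% interval -0.38 to 0.64). Cldn5, Cdh5 and Tek were below the filter, with at most 5 in any rod library.

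**Figure D4:**
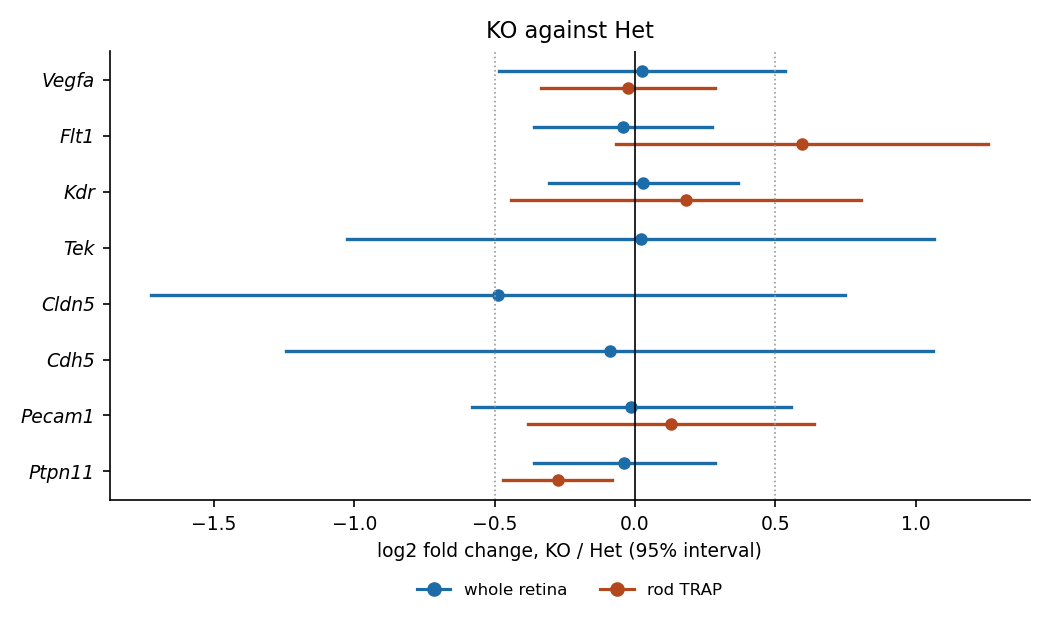
Log2 fold change of KO against Het with its 95% interval from limma, in whole retina and in rod TRAP, with dotted lines at 0.5 in either direction. All intervals of the 7 genes include 0, the widest is that of Cldn5 in retina, and the rod TRAP interval of Ptpn11 lies below 0.

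Among the vascular lists in KO rods 1 of 10 tested barrier genes was called higher, the glucose transporter gene Slc2a1, which also belongs to the HIF list. It had 1795, 2576 and 2397 in Het rods against 3246, 3151 and 3157 in KO rods, a log2 fold change of 0.58 (SE 0.12, adjusted p = 0.0101 from limma). Of 20 tested HIF genes 2 were called higher and 2 lower, with a median of -0.21 against -0.03 for all genes. Among all genes tested in rods 10.8% were called higher and 2.34% lower, so the counts called higher lie near that share. Egln2, an oxygen-sensing prolyl hydroxylase, rose by 1.17 from 93, 142 and 105 in Het rods to 227, 325 and 193 in KO rods. Pdk1 and Bnip3, a mitophagy receptor, fell, with log2 fold changes of -0.63 and -0.57 (adjusted p = 0.00832 and 0.00969 from limma). Notch1 rose by 1.73 from values of 2, 3 and 12 in Het rods to 19 in each KO library. The Het values of 2 and 3 are near the floor of 3 reads. With the GC trend subtracted, Slc2a1 had 0.39, Egln2 0.36, Pdk1 -0.41, Bnip3 -0.24 and Notch1 1.28, and none of the 5 was called. None of the 2 ligands, 4 receptors or 2 endothelial identity genes tested was called.

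These rod values moved with base composition. Across genes, the log2 fold change of KO rods and the GC content of the transcript had a Spearman correlation of 0.70, and genes are not independent replicates. Of 10 equal bins of genes by GC, the lowest had a median of -0.29 and the highest a median of 0.67. The 7 members have a GC content of 47.1% for Tek to 60.5% for Cldn5, with Vegfa at 50.9%, and the 2152 genes with a GC of 49% to 52% had a median of 0.0087. With the trend subtracted, 370 genes were called instead of 1711, the Vegfa value was 0.00080, and no member was called. In a fit over all 12 libraries, which share 1 estimate of the spread, 0 genes were called. The part of base composition in the calls above was not tested.

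The change with genotype was also compared between fractions, as an interaction over all 12 libraries. None of the 7 genes was called, and the percentage called was 0, with 0 of 17192 genes passing limma and 602, or 3.5%, at an unadjusted p below 0.05. Vegfa had a difference of -0.14 (95% interval -0.74 to 0.46) and Flt1 of 0.56 (95% interval -0.12 to 1.24, adjusted p = 0.803 from limma).

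Among the members, the whole-retina libraries differed most in Cldn5, Cdh5 and Tek, the genes with few reads. The summed scaled value of Cldn5, Cdh5 and Tek ran from 34.8 in KO retina replicate 2 to 122 in KO retina replicate 3, or 3.51-fold. Kdr and Flt1 differed by only 1.24-fold and 1.21-fold between the lowest and the highest library, and Vegfa by 1.599-fold, lowest in Het retina replicate 3 and highest in Het retina replicate 2. The 21 endothelial identity genes without Podxl, which was set aside after its values were seen, summed to between 496 and 923, highest in KO retina replicate 3.

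Genes of other cell types also varied between these libraries. The mural cell list summed to between 627 and 3534, the blood cell list to between 319 and 2287, and the RPE list to between 404 and 11139. KO retina replicate 3 was highest in the mural and RPE lists and Het retina replicate 3 second in both, whereas the blood list was highest in Het retina replicate 2. In rod TRAP the RPE list summed to 38.5 to 486 and the blood list to 21.9 to 68.8. The part of these cell types in the endothelial values was not tested. Without Het retina replicate 3 and KO retina replicate 3 together, 0 members were called in retina and Vegfa had a log2 fold change of -0.17, a comparison chosen after the data were seen.

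**Figure D5:**
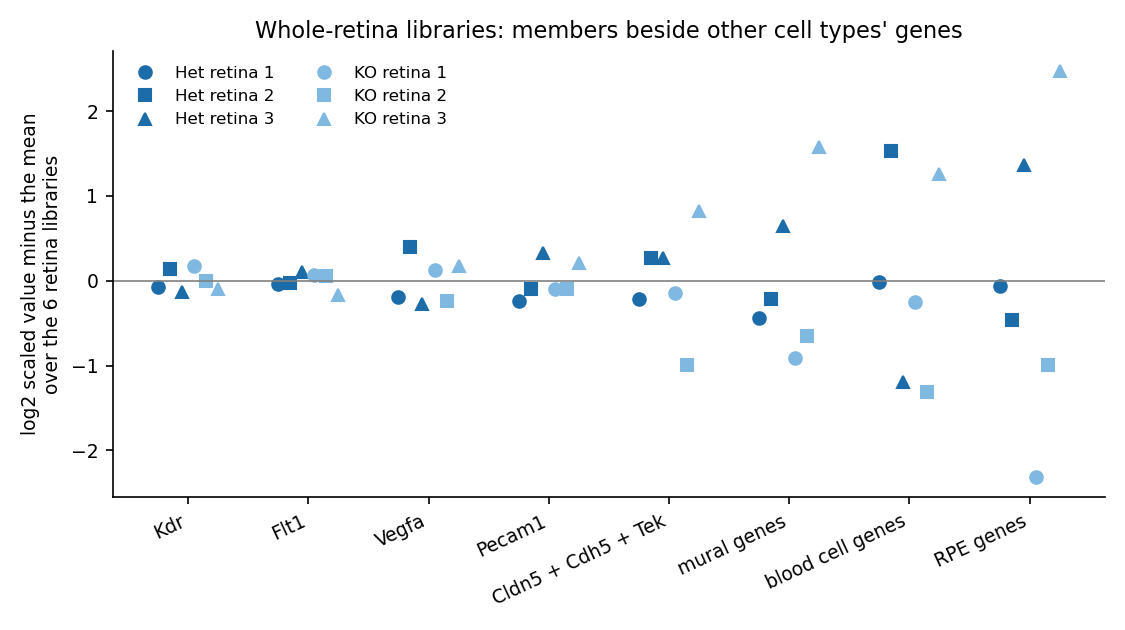
Log2 of the TMM-scaled value or summed value in each whole-retina library minus its mean over the 6 libraries, with colour for genotype and shape for replicate number. Kdr and Flt1 lie close to 0 in all 6 libraries, while Cldn5, Cdh5 and Tek together, and the mural, blood and RPE genes, spread widely, with KO retina replicate 3 high in all 4.

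Genes with the most similar pattern were named by the root mean square difference of centred log2 values over the 12 libraries, among 17192 genes. Nearest to Vegfa were Pfkm, Ndn, Arhgef25, Cplx3 and Rab11fip5, at 0.17 to 0.18. Nearest to the mean of the 6 endothelial genes were Jam3, Cltb, Kcnj11, Nfix and Prdx6, at 0.19 to 0.23. Most of each pattern is the difference between fractions. Over the 6 retina libraries alone the nearest to Vegfa were Ahcyl, Lasp1, Stmn3, Ebf4 and Arhgef4, and 0 of 5 genes were shared for either target.

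Genes that start within 1 Mb of Vegfa were also followed, since Vegfa lies on chromosome 17 and the targeted Ptpn11 on chromosome 5, as do Flt1 and Kdr. In retina 47 of these 71 genes were tested and 0 were called. Slc29a1, an adenosine transporter gene 433 kb away, had the smallest unadjusted p among them, 0.000586, with a log2 fold change of 1.67 and an adjusted p of 0.9999 from limma. In KO rods 12 of 43 tested were higher and 0 lower, against 10.8% called higher among all genes, with a median of 0.38. Among them, Klc4, a kinesin light chain, rose by 1.03, Abcc10, a transporter, by 1.18, and Prph2, a disc rim protein of photoreceptors, by 0.58. After the trend with GC content was subtracted, 1 of these neighbours was called, and Klc4 had 0.43, Abcc10 0.69 and Prph2 0.38.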

How the data were processed

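RNA was measured in 12 libraries of retina and rod TRAP RNA, grouped by title. Per the labels, RNA was reverse transcribed with SMART-Seq V4, and the submitters' processing notes name CASAVA 1.8.2, HISAT2, DESeq2, edgeR and GRCm39 without giving their role. The deposited table holds a signal per gene, which the authors' processing made from read counts by 1 factor per library and rounding, as inferred from the values. A count model was therefore not used. In Het retina replicate 3 the estimated factor was not distinguishable from 1.

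Values were scaled with TMM on genes past the filter (a value of about 10 in at least 3 libraries and a sum of at least 15), raised by a pseudocount of 2 and log2 transformed. Groups were compared with limma 3.58.1 in R 4.3.3 (trend and robust options, Benjamini-Hochberg adjustment). A call needed an adjusted p below 0.05 and a log2 change beyond 0.5, or the adjusted p alone for the interaction. The study removed rod-depleted genes before comparing KO and Het rods, and here they stayed in, because most members are among them. The fit was tested on simulated data.

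The members and lists were chosen with earlier results of these data known. Named genes are the members, Ptpn11, the most abundant and most changed genes of each list, the 5 nearest in pattern, and called genes beside Vegfa or those there with an unadjusted p below 0.01. From the qualifying genes of the longer lists only some are named, and 1 gene is not reported here. Coordinates, transcript lengths and GC content come from GENCODE M21 on GRCm38, to which 91.8% of the genes matched by identifier, whereas the authors' notes name GRCm39. Gm29682, antisense to Cdh5, was 0 in all libraries, and Gm42930 overlaps Ptpn11. Same-numbered Het rod and Het retina libraries deviated together (correlations 0.47, 0.41 and 0.25), so the numbers in the titles pair them, but the values reported are from fits without the pairs, and fits with the replicate block are an alternative. The test of ratios within libraries, and its form with Het pairs, were added after the data were seen. The alternatives were other scalings, pseudocounts, filters, a replicate block, subtraction of the GC trend, all libraries in 1 fit, limma without its options, and leaving out each library. For KO against Het rods, removal of the rod-depleted genes was a further alternative, which leaves no member to test. Het and KO retina replicate 3 were also left out together between genotypes, as decided after the data were seen. Python 3.11.15 with NumPy 2.4.6 and matplotlib 3.10.9 was used for the factors and figures.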

Additional observations from a re-analysis of the deposited data

How the results depend on the processing

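Between fractions, 111 of 112 recomputed values of the members in Het mice and 93 of 96 in KO mice kept their direction and call. The others were of Pecam1, which lost its call without single libraries. Between genotypes no member was called under any alternative that tested it, and 24 of 119 values in retina, 6 of 64 in rods and 11 of 154 of the interaction changed sign. Leaving out 1 library gave ranges in retina of -0.94 to 0.055 for Cldn5, -0.14 to 0.15 for Pecam1, -0.50 to 0.25 for Cdh5, -0.091 to 0.034 for Flt1, -0.052 to 0.11 for Kdr, -0.41 to 0.40 for Tek and -0.10 to 0.24 for Vegfa, and in rods of -0.12 to 0.42 for Kdr and -0.13 to 0.067 for Vegfa. For the interaction the ranges were -0.037 to 0.31 for Pecam1, -0.10 to 0.45 for Kdr, -0.73 to 0.0029 for Tek and -0.21 to 0.10 for Vegfa. Between Het fractions they were -1.80 to 0.11 for Ets1 and -0.28 to 0.081 for Fzd4. With all 12 libraries in 1 fit, Pecam1 in retina was 0.0053 and Fzd4 between Het fractions was 0.030. Without both replicate 3 retina libraries, a setting chosen after seeing the data, the retina values were 0.056 for Pecam1, 0.084 for Flt1, -0.14 for Tek and -0.17 for Vegfa, the interaction of Vegfa was 0.096, and 6 genes were called in retina. Vegfa in rods was 0.00080 with the GC trend subtracted, with or without the block. The cause of these changes was not tested.

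Genes called in KO rods numbered 370 with the GC trend subtracted (442 with the block as well), 1102 without the trend and robust options of limma, 0 with all 12 libraries in 1 fit, and 951 to 1976 without 1 library. Genes called beside Vegfa numbered 1, 1, 7, 0 and 6 to 16 in the same settings, and the lowest came without Het rods replicate 1. In retina 1 gene was called without limma's options and 0 to 1 without 1 library, as for the interaction. With the replicate block, pairing by number, 9829 and 9880 genes were called between Het and KO fractions, 0 in retina, 1842 in rods and 0 for the interaction, and no member's call changed. Outside the Het fractions pairing by number was not shown, which does not exclude it. Between KO fractions the correlations were 0.33, -0.01 and 0.18, with a mean of 0.17 for the same number and -0.08 for different numbers. Between genotypes they were 0.40, -0.59 and -0.14 in retina and 0.18, 0.03 and 0.03 in rods. Estimated reads of 9980000 to 25276000 per library limit what can be seen of Cldn5, Cdh5 and Tek in rods.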
